A study of Mus musculus with 10 samples.

Results

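The 10 genes described here are ones that ERK signalling switches on and that in turn restrain or relay it, followed in cultured tongue epithelial cells. They were Dusp1, Dusp4, Dusp5, Dusp6, Spry2, Spry4, Spred1, Phlda1, Etv4 and Etv5, chosen by symbol. All 10 were among the 18586 rows of the deposited table, and 9 passed the filter of at least 1 TPM in at least 4 libraries that left 11630 genes to test. TPM is a transcript abundance corrected for transcript length and scaled to a common sum within each library. Spry4 stayed below the filter and was not tested.

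RNA-seq had been made of poly(A) RNA from primary cultures of mouse tongue epithelium, taken 15 days after the transgenes were induced and sorted for green fluorescence. The 4 N libraries carried Krt14-CreERT, LSL-rtTA and tetON_H2B-GFP, in which keratin 14 promoter activity restricts the induced Cre, and hence the transactivator, to basal epithelial cells. The 6 EY libraries carried these alleles and, in addition, tetON_E6-E7 (the HPV oncogenes that inactivate p53 and Rb) and tetON_YAP1S127A (a YAP1 that escapes Hippo inhibition). Per the study's methods, the cultures of both genotypes grew on collagen in keratinocyte medium with added EGF, cholera toxin and doxycycline, so that an ERK-activating growth factor was present in all of them. The N libraries were all of line N4172, and the EY libraries were of 3 lines. Genotype and line therefore cannot be told apart for any single gene. The labels do not say whether libraries of a line were separate cultures, and the p-values measure the spread between these samples, which may be technical. EY replicates 1 and 4 were of line EY3960, 2 and 5 of EY4028, and 3 and 6 of EY4174.

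In the ERK cascade, receptors such as EGFR load Ras with GTP, Ras recruits Raf, Raf phosphorylates MEK, and MEK phosphorylates ERK. Active ERK induces transcription of its own inhibitors. Dual-specificity phosphatases (Dusp genes) remove phosphate from ERK and related kinases, Sprouty and Spred proteins act on Ras and Raf, and the ETS factors Etv4 and Etv5 carry the signal on to further genes. Because their transcripts follow ERK activity in many cells, these genes are often read together as a transcriptional measure of the pathway. ERK phosphorylation itself was not measured here.

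The epithelial label was checked first. Krt14 had 3294 TPM in EY and 3371 in N, and Krt5 1943 and 1822, both means. Krt6a averaged 1757 TPM in EY and 1784 in N. Of the 6 epithelial markers, Trp63 was lower in EY (53.0 against 79.9 TPM, log2 fold change -0.58, limma adjusted p 0.00262) and Epcam higher (58.8 against 33.0, 0.82, adjusted p 6.74e-05). Cdh1, at 18.2 and 13.5 TPM (0.42, adjusted p 0.0194), passed when N replicate 4 was left out (adjusted p 0.00256). Yap1 was higher in EY, at 44.1 ± 9.54 TPM (SD, n = 6) against 18.7 ± 1.79 (SD, n = 4). Its log2 fold change was 1.17 (limma adjusted p 1.73e-04). Whether reads of the YAP1S127A transgene were counted under this mouse symbol is not given in the sources used here. Of the fibroblast markers 2 of 6 were listed and summed to at most 0.748 TPM in any library, and 3 of 4 endothelial markers summed to at most 1.36. Of the muscle markers 2 of 5 were listed and summed to at most 0.933 TPM, and all 4 melanocyte markers summed to 0.458 to 1.23 TPM in EY and 1.29 to 3.44 in N. The 3 of 6 leukocyte markers listed summed to 29.4 to 71.9 TPM in EY and 42.2 to 68.9 in N, nearly all of it Cd68, with Ptprc at no more than 0.347 TPM and Csf1r at no more than 0.0582. The granulocyte list (4 of 5 listed) summed to 17.1 to 81.6 TPM in EY and 1.73 to 10.3 in N, made up mostly of S100a8 and S100a9, which keratinocytes also make. S100a8 was called higher in EY, at a mean of 15.4 against 1.41 TPM (log2 fold change 2.52, limma adjusted p 0.0091). S100a9, with means of 22.2 and 2.10 TPM, did not pass (log2 fold change 2.88, adjusted p 0.0107). When N replicate 4 was left out the adjusted p was 0.0108 for S100a8 (2.77) and 0.00466 for S100a9 (3.37), so that which of them passed rested on that library. Ly6g averaged 0.603 TPM in EY and 0.374 in N, and Cxcr2 0.899 and 0.609. The part of this list in the results below was not tested. Mitochondrial transcripts made up 14.1% to 20.5% of each library.

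N replicate 4 stood apart from the other N libraries in these genes. It was the lowest N library for 10 of 10 members, against 36.6% of all tested genes for which it was lowest and 35.3% for which it was highest. Over the 9 tested members its level was a median of 71.3% of the mean of the other N libraries, where the median over all tested genes was 98.9%. The gap was widest for Etv5 (44.6%), Spry2 (50.2%), Dusp6 (51.2%) and Phlda1 (58.3%), and narrowest for Dusp1 (90.5%). Of the ERK cascade genes described further on, 8 of 21 were lowest in that library, and of the immediate early genes 9 of 14. It had 11246 genes at 1 TPM or more and 17.6% mitochondrial transcripts, against 11172 to 11299 genes and 17.8% to 20.5% in the other N libraries. What set this library apart was not tested, and each member whose result rests on it is given with and without it. It was singled out by the values of these same genes. The adjusted p of fits without it are therefore descriptions and no independent support.

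Promoters are shown for the 4 members with RefSeq windows with the largest fitted differences between EY and N. RefSeq promoters (GRCm38.p6, 250 bases before to 50 after the start) were read for 6 of the members, in 7 windows. They were searched on both strands for the cAMP response element TGACGTCA, the AP-1 site TGANTCA, the ETS site CGGAAG and the TEAD site GGAATG, which are held by 1.79%, 7.81%, 16.9% and 14.7% of all 32851 promoters. Capitals mark a match on either strand, and no match overlapped a match of another motif. The Dusp6 window is chr10:99262981-99263280 on the plus strand, Dusp5 chr19:53528895-53529194 on the plus strand, Dusp1 chr17:26508423-26508722 on the minus strand and Etv5, at the upstream of its 2 starts, chr16:22439521-22439820 on the minus strand. Each runs 5′ to 3′ along its gene.
Dusp6: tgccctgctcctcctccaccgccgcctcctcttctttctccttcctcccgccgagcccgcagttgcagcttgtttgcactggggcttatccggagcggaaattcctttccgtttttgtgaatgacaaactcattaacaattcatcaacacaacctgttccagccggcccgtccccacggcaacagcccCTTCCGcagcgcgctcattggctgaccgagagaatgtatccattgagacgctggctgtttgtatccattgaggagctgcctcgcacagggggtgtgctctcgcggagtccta
Dusp5: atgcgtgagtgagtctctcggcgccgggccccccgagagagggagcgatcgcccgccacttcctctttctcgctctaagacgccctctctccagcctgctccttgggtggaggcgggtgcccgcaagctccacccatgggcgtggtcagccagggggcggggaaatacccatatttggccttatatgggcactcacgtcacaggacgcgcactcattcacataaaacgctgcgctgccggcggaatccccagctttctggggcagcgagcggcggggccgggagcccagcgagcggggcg
Dusp1: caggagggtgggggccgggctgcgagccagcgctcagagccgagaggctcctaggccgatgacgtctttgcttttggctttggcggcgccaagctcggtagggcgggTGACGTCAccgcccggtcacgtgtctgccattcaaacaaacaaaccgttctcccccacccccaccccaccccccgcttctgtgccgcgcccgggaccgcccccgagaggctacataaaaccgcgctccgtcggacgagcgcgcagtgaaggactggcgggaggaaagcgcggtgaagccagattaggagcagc
Etv5: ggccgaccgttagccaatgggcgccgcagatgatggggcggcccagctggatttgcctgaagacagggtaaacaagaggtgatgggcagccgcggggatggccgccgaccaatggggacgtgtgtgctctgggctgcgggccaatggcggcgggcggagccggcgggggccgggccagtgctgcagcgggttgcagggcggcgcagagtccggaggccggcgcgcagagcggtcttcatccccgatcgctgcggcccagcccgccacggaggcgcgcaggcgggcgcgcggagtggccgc
The Dusp6 window held 1 ETS match, beginning 62 bases before the start. In Dusp1 a cAMP response element began 143 bases before it. Spred1, not printed, held 2 ETS matches, and the windows of Dusp5, Etv5 (both starts) and Spry2 held none of the 4 motifs. The matches are descriptions of letters in these windows only. Windows of the other members are not reported here.

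Between EY and N, 1 of the 9 tested members was called, with a limma adjusted p under 0.01 and a log2 fold change beyond 1 in either direction. This was Phlda1, higher in EY, and 0 members were called lower. Over all tested genes 1.85% were called higher and 1.7% lower. At the adjusted p alone the counts were again 1 higher and 0 lower, where 6.84% of all genes were higher and 5% lower. Unadjusted p under 0.05 was reached by 6 members, and by 37.5% of all tested genes. The fold changes were positive for 4 members and negative for 5, with a median of -0.04 against 0.03 over all genes, all on the log2(TPM + 1) scale. Leaving out N replicate 4 gave 1 member higher (Phlda1) and 2 lower (Dusp6 and Etv5) at the adjusted p, where 7.52% of all genes were then higher and 4.64% lower. In cultures of mixed cells, fewer cells of a type and less RNA per cell cannot be told apart.

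**Figure D1:**
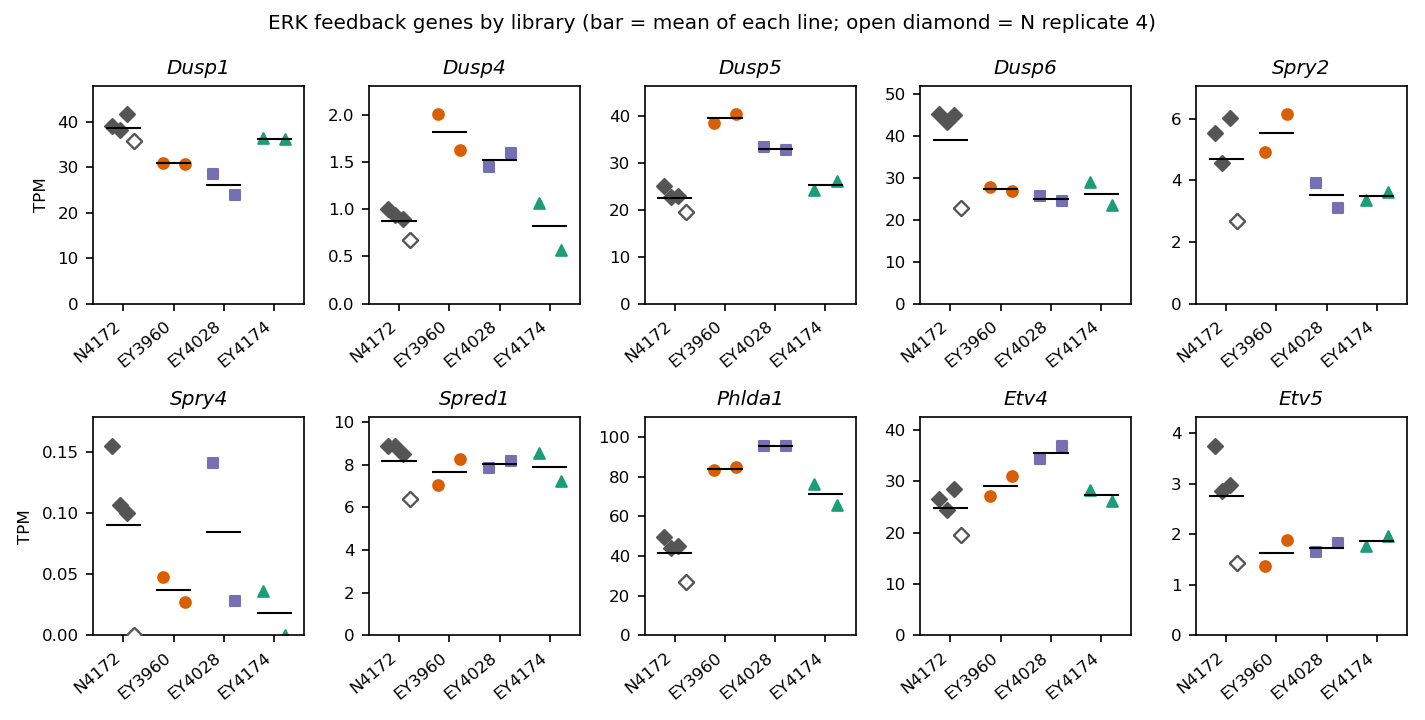
TPM of the 10 feedback genes in each library (vertical axes from 0, scaled gene by gene), with N4172 and the 3 EY lines along the horizontal axis, 1 symbol per library and a bar at each line's mean. Phlda1 is the gene in which all EY libraries (65.7 TPM or more) lie above all N libraries (49.5 or less), and the open diamond, N replicate 4, is the lowest N library in every panel.

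Phlda1 encodes a pleckstrin homology-like protein whose transcript is induced by growth factors through ERK, and it had the highest TPM of the 10 genes in EY. The level was 83.4 and 84.8 TPM in EY3960, 95.6 and 95.5 in EY4028, 76.6 and 65.7 in EY4174, and 49.5, 43.9, 45.0 and 26.9 in N replicates 1 to 4. Every EY library was above every N library, which also held for 11.3% of all tested genes. EY4028 was highest and EY4174 lowest of the EY lines, and N replicate 4 was well below the other N libraries. EY averaged 83.6 ± 11.5 TPM (SD, n = 6) against 41.4 ± 9.92 for N (SD, n = 4), a ratio of 2.02. The log2 fold change was 1.02 ± 0.16 (SE, 95% confidence interval 0.67 to 1.37, limma adjusted p 9.8e-04). Without N replicate 4 it was 0.83 (adjusted p 7.05e-04), under the fold threshold, as it was without EY replicate 2 or 5 (0.98 each) and under 3 other scalings. With the line as a random block the adjusted p was 0.0513, and with 1 mean per line 0.178.

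By the likeness of centred log2(TPM + 1) values over the 10 libraries, the genes most like Phlda1 were Epha2 and Zswim4. Epha2, an ephrin receptor that is also an ERK target, differed from it by a root mean square of 0.118 on the log2 scale and had a fold change of 0.88. Zswim4 differed by 0.122 and had a fold change of 0.87, at means of 2.47 TPM in EY and 0.910 in N.

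None of the 4 phosphatases passed the test over all libraries, and their differences had both signs. Dusp6, the cytoplasmic phosphatase selective for ERK, had 27.8 and 26.9 TPM in EY3960, 25.6 and 24.4 in EY4028, 28.9 and 23.5 in EY4174, and 45.1, 43.3, 45.0 and 22.7 in the N replicates. All 6 EY libraries lay below N replicates 1 to 3, while N replicate 4 lay below all 6 EY libraries. The share of all tested genes with every EY library below N replicates 1 to 3 was not counted. Below all 4 N libraries it was 9.1%. EY averaged 26.2 ± 2.06 TPM (SD, n = 6) against 39.0 ± 10.9 for N (SD, n = 4), or 44.4 ± 1.03 for N without replicate 4 (SD, n = 3). With all libraries the log2 fold change was -0.51 ± 0.17 (SE, 95% confidence interval -0.88 to -0.14) and did not pass (limma adjusted p 0.0468). Without N replicate 4 it was -0.74 ± 0.08 (SE, adjusted p 1.86e-04). The differences from N were -0.45, -0.57 and -0.51 in EY3960, EY4028 and EY4174. By limma's F test the adjusted p for the difference between lines was 0.939, and 0.571 without N replicate 4. That the test was not passed does not show the lines to be the same.

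Dusp5, the nuclear phosphatase selective for ERK, was of the opposite sign. It had 38.5 and 40.3 TPM in EY3960, 33.2 and 32.8 in EY4028, 24.3 and 26.1 in EY4174, and 25.0, 22.8, 22.9 and 19.5 in N. The libraries of EY3960 and EY4028 were above all N libraries, and those of EY4174 overlapped the upper N values. How many of all tested genes had single lines apart from N was not counted, here or for Dusp1, Dusp4 and Etv4 below. Average levels were 32.5 ± 6.42 TPM (EY, SD, n = 6) and 22.5 ± 2.25 (N, SD, n = 4). Over all EY libraries the log2 fold change of 0.49 ± 0.14 (SE, 95% confidence interval 0.18 to 0.80) had a limma adjusted p of 0.0254. It passed without line EY4174 (0.66, adjusted p 0.00128) or without its first library, EY replicate 3 (0.57, adjusted p 0.00935). EY4174 was the EY line nearest to N in this gene, and EY replicate 3 was its lowest EY library. Here and below, passing only without a line or library is a description and no independent support.

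Dusp1, a nuclear phosphatase that acts on p38 and JNK as well as ERK, had 31.1 and 30.8 TPM in EY3960, 28.5 and 23.9 in EY4028, 36.5 and 36.2 in EY4174, and 39.2, 38.3, 41.7 and 35.9 in N. EY3960 and EY4028 lay below every N library, whereas both EY4174 libraries lay just above N replicate 4. Average levels were 31.2 ± 4.78 TPM (EY, SD, n = 6) and 38.8 ± 2.38 (N, SD, n = 4). The difference was -0.32 ± 0.11 on the log2 scale (SE, limma adjusted p 0.0599). Without line EY4174, the EY line nearest to N in this gene as well, the fold change was -0.43 and passed (adjusted p 0.00894).

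Dusp4, a nuclear phosphatase of several MAP kinases, was the lowest of the tested members, at the 5.01 percentile of mean TPM among tested genes. Its values were 2.00 and 1.62 TPM in EY3960, 1.45 and 1.60 in EY4028, 1.07 and 0.572 in EY4174, and 1.01, 0.944, 0.896 and 0.676 in N. EY3960 and EY4028 were above all N libraries, and EY4174 held both the lowest value of the 10 and 1 above N. The log2 fold change was 0.32 ± 0.18 (SE, 95% confidence interval -0.07 to 0.70, limma adjusted p 0.213), which understates the ratio of genes this low.

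Of the membrane-linked inhibitors, none passed the test. Spry2, a Sprouty protein that inhibits signalling from growth factor receptors to Ras, had 4.92 and 6.14 TPM in EY3960, 3.93 and 3.11 in EY4028, 3.38 and 3.62 in EY4174, and 5.52, 4.57, 6.01 and 2.70 in N. The groups overlapped, with EY3960 at the level of the higher N values and the other EY lines between N replicate 4 and the rest of N. Its log2 fold change was -0.12 (limma adjusted p 0.694), and -0.32 (adjusted p 0.217) without N replicate 4.

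Spred1, which brings neurofibromin to the membrane to switch off Ras, had the smallest difference. Its EY libraries ranged from 7.07 to 8.57 TPM and its N libraries from 6.40 to 8.89, so that the EY range lay within the N range. Average levels were 7.87 ± 0.602 TPM (EY, SD, n = 6) and 8.18 ± 1.20 (N, SD, n = 4). The log2 fold change was -0.04 (95% confidence interval -0.28 to 0.20, limma adjusted p 0.810).

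Spry4 was near 0 throughout. The highest values were 0.155 TPM in N replicate 1 and 0.141 in EY replicate 2, the first library of EY4028. It was listed at 0 in N replicate 4 and EY replicate 6. No fold is given at these levels.

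The ETS factors Etv4 and Etv5, of the PEA3 subfamily, had differences of opposite sign, neither past the test over all libraries. Etv4 had 27.2 and 31.1 TPM in EY3960, 34.3 and 36.9 in EY4028, 28.4 and 26.2 in EY4174, and 26.6, 24.5, 28.5 and 19.6 in N. Both EY4028 libraries and 1 of EY3960 exceeded all N libraries, and the remaining EY values lay within the N range. Average levels were 30.7 ± 4.24 TPM (EY, SD, n = 6) and 24.8 ± 3.80 (N, SD, n = 4). The log2 fold change was 0.30 (limma adjusted p 0.0989), or 0.20 (adjusted p 0.242) without N replicate 4.

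Etv5 was much lower, with 1.37 and 1.89 TPM in EY3960, 1.65 and 1.82 in EY4028, 1.77 and 1.97 in EY4174, and 3.75, 2.86, 2.98 and 1.43 in N. As for Dusp6, every EY library was below N replicates 1 to 3, a separation whose share over all tested genes was not counted. N replicate 4 fell among the EY values. Average levels were 1.74 ± 0.214 TPM (EY, SD, n = 6) and 2.75 ± 0.968 (N, SD, n = 4). The log2 fold change of -0.41 did not pass with all libraries (limma adjusted p 0.0986). Without N replicate 4 it was -0.61 (adjusted p 0.00589).

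**Figure D2:**
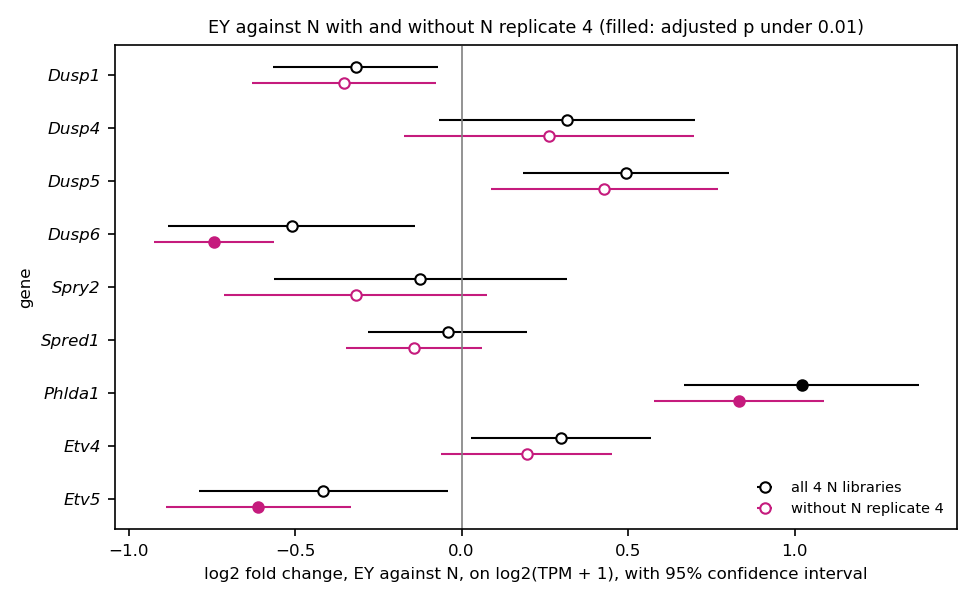
Log2 fold change between EY and N on log2(TPM + 1), with 95% confidence intervals, for the 9 tested feedback genes (rows), with all 4 N libraries (black) and without N replicate 4 (magenta). Filled symbols have an adjusted p under 0.01. Dusp6 moves from -0.51 to -0.74 and Etv5 from -0.41 to -0.61, both to filled symbols, while Phlda1 moves from 1.02 to 0.83.

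Ratios of members within a library do not depend on its scaling. They were chosen after the values were seen and are given without a test. Phlda1 stood at 2.65 to 3.91 times the TPM of Dusp6 in the EY libraries and at 1.00 to 1.18 times in N, N replicate 4 included. Those ranges were apart although N replicate 4 had low values of both genes. Etv4 stood at 13.3 to 20.9 times Etv5 in EY and 7.10 to 13.8 times in N. Dusp5 stood at 0.840 to 1.50 times Dusp6 in EY and 0.509 to 0.859 times in N. Both of these ratios overlapped between groups only through N replicate 4.

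Each EY line was also compared with the same N libraries, which the 3 comparisons share. In EY3960, Phlda1 (log2 fold change 1.04, limma adjusted p 0.00346) and Dusp5 (0.78, adjusted p 2.1e-04) were higher at an adjusted p under 0.01, and 0 members were lower. Of all genes, 9.94% were higher and 7.06% lower in that line. In EY4028, Phlda1 (1.22, adjusted p 0.00157) and Dusp5 (0.54, adjusted p 0.00286) were higher and Dusp1 was lower (-0.55, adjusted p 0.00154), against 10.9% higher and 5.83% lower among all genes. In EY4174 none of the 9 passed, where 7.32% of all genes were higher and 8.26% lower, and 1 member had an unadjusted p under 0.05, as had 41.4% of all genes. That member was Phlda1, with a fold change of 0.80 (adjusted p 0.0149), the EY4174 values of Dusp5 and Dusp1 being 0.16 (adjusted p 0.268) and -0.09 (adjusted p 0.513).

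Leaving out N replicate 4 moved these line results. Without it, 5 members passed in EY3960 (2 higher and 3 lower), 6 in EY4028 (3 higher and 3 lower) and 2 in EY4174 (1 higher and 1 lower). Of all genes tested in that fit, 15.6% were higher and 9.90% lower in EY3960, 16.8% and 8.80% in EY4028, and 12.1% each way in EY4174. Dusp6 then passed in each line, at -0.68 (adjusted p 1.83e-04), -0.80 (adjusted p 6.6e-05) and -0.75 (adjusted p 1.35e-04). Phlda1 passed in EY4174 at 0.61 (adjusted p 2.08e-04), Dusp1 in EY3960 (adjusted p 0.00844), Etv4 in EY4028 at 0.41 (adjusted p 0.00565), and Etv5 in EY3960 (adjusted p 0.00438) and EY4028 (adjusted p 0.00756). With 1 library of EY3960 or EY4028 left out, the fold changes of Phlda1 and Dusp5 hardly moved. The adjusted p of some rose over 0.01 with the line cut to 1 sample. In EY4174 Phlda1 was at 0.69 without EY replicate 3 and 0.91 without EY replicate 6, against 0.80 with both. In EY4028 Phlda1 stayed at 1.22 (adjusted p 0.0212 and 0.0204 without EY replicates 2 and 5) and Dusp5 at 0.53 and 0.55 (adjusted p 0.0398 and 0.0336). In EY3960 Phlda1 was at 1.05 and 1.03 (adjusted p 0.0330 and 0.0354 without EY replicates 1 and 4), and Dusp5 still passed. Dusp1 in EY4028 was at -0.43 without EY replicate 5 (adjusted p 0.0395).

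**Figure D3:**
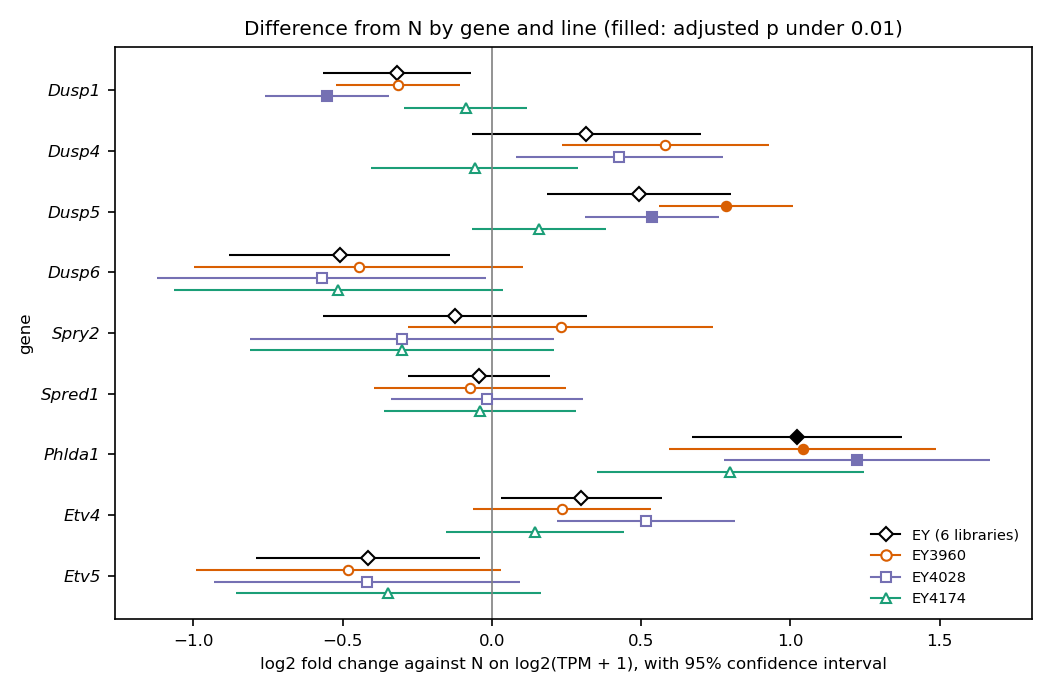
Log2 fold change against N on log2(TPM + 1), with 95% confidence intervals, for the 9 tested feedback genes (rows), over all EY libraries (black diamonds) and for lines EY3960 (circles), EY4028 (squares) and EY4174 (triangles), filled where the adjusted p was under 0.01. The lines lie close together for Dusp6 (-0.45 to -0.57) and fan out for Dusp5 (0.16 to 0.78) and Dusp1 (-0.09 to -0.55), with EY4174 nearest to 0 in both.

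Differences between the EY lines were tested directly. Of the 9 members, 0 passed limma's F test at an adjusted p under 0.01, where 8.55% of all genes passed, and 3 had an unadjusted p under 0.05, as had 34.8% of all genes. These were Dusp5, whose lines spanned 0.63 on the log2 scale (adjusted p 0.0106), Dusp1, which spanned 0.46 (adjusted p 0.0327), and Dusp4, which spanned 0.64 (adjusted p 0.0607). In Dusp5 and Dusp4 the order of the line means was EY3960, EY4028 and EY4174 from the highest down. Dusp5 passed when N replicate 4 was left out (adjusted p 0.00101), where 17.1% of all genes passed. Phlda1 did not pass (adjusted p 0.376).

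The genes around the feedback genes were read from 4 lists written from general knowledge, but with earlier results of these data known. Their counts are therefore descriptions and no independent support. With the line as a random block, 1 gene of all 4 lists passed the adjusted p, Plaur, so that the counts below rest on taking libraries of a line as independent. Beside the counts of all 4 lists, 6.84% of all tested genes were higher and 5% lower at the adjusted p. Without N replicate 4 these shares were 7.52% and 4.64%. Of 21 tested genes of the ERK cascade (22 listed), 0 passed between EY and N by limma, and the median log2 fold change was 0.05. Unadjusted p under 0.05 was reached by 6 of them, and by 37.5% of all tested genes. Among those with the highest TPM were Hras (0.25), Nras (0.11) and Map2k2 (0.38, adjusted p 0.0137, and 0.48, adjusted p 0.00196, without line EY3960), which encode a pair of Ras proteins and MEK2. When N replicate 4 was left out, 1 gene of the cascade passed, Sos2, lower at -0.74 (adjusted p 0.00718).

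Other feedback regulators were counted next, and 4 were higher and 0 lower of 17 tested (20 listed), with a median of 0.11. With N replicate 4 left out the counts were again 4 and 0, of which 3 genes were shared, Dusp3 (0.66, adjusted p 0.00168) taking the place of Dusp9. Dusp10, a phosphatase of p38 and JNK, was called at 1.07 (limma adjusted p 0.00869). The adjusted p of Dusp10 was over 0.01 with no filter (0.0117), with plain variances (0.0111), without any 1 of EY replicates 1, 2, 4 and 5 or N replicates 1 to 3 (0.0147 to 0.0338), without line EY3960 or EY4028, with the line as a random block (0.0955) and with line means (0.464). Dusp14 (0.87), Spred3 (0.80) and Dusp9 (0.64) passed the adjusted p below that fold. Dusp14 no longer passed without any 1 of EY replicates 1, 2, 4 and 5 or N replicates 1 to 3 (limma adjusted p 0.0126 to 0.0266). Nor did Dusp14 pass without line EY3960 (0.0244) or EY4028 (0.0308). Among those of high TPM, Errfi1, an inhibitor of EGFR, had 0.69 (adjusted p 0.0347, and 0.94, adjusted p 0.00100, without line EY4174), Pebp1, which binds Raf, 0.25, and Dusp7 0.02, the last with a sign that changed under other scalings. The difference between these counts and that of the members was not tested.

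Of 14 tested immediate early genes (16 listed), 5 were higher and 0 lower at the adjusted p, with a median log2 fold change of 0.38. Atf3, a stress-induced factor, was called at 1.64 (limma adjusted p 3.24e-04, or 0.0335 with the line as a random block and 0.0959 with line means). Jun (0.95), Maff (0.91), Zfp36 (0.85) and Junb (0.62) passed below the fold threshold. Ier3 (0.34), Klf6 (0.32) and Srf (0.42), named for their TPM, did not pass. Klf6 passed without line EY4174 (0.53, adjusted p 0.00122), and Srf (adjusted p 0.0111) under quantile normalization (0.00723), under median ratio scaling (0.00576), without EY replicate 1 (0.00721) and without line EY3960 (0.00959). Of 11 tested further ERK output genes (12 listed), 4 were higher and 0 lower, namely Plaur (0.90), Epha2 (0.88), Ets1 (0.72) and Myc (0.51). Ccnd1 (0.07) and Fosl1 (0.45) did not pass. The sign for Ccnd1 changed without line EY4028, and Fosl1 was at 0.21 when N replicate 4 was left out. Among the genes that did not pass, Fosb had the lowest difference of these lists, -1.01 (adjusted p 0.0112, and -0.73 without N replicate 4), and is named after its value was seen. Leaving out N replicate 4 took Jun and Myc from those past the adjusted p and added none in these 2 lists.

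**Figure D4:**
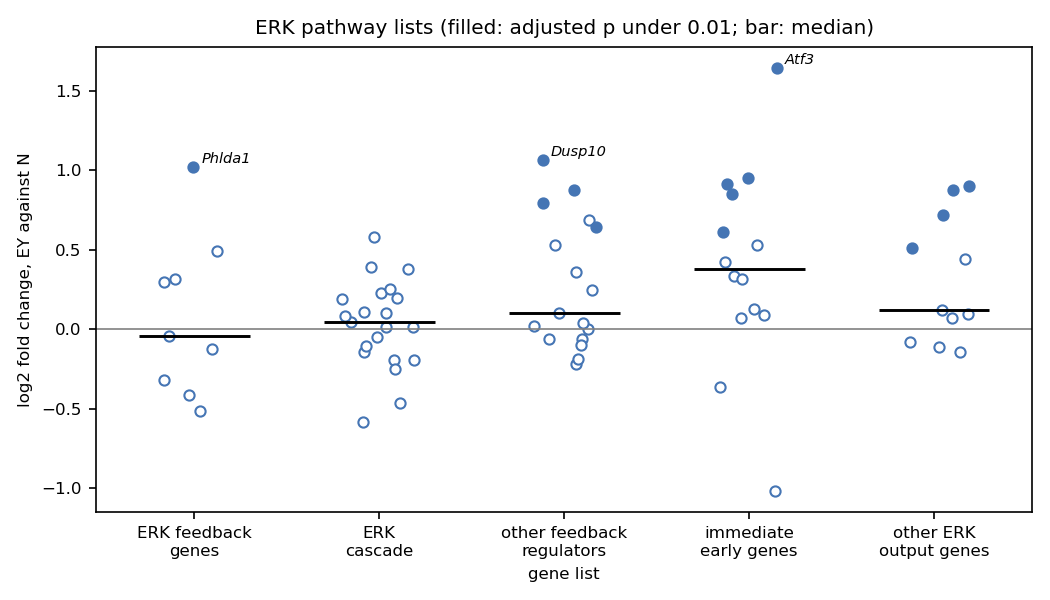
Log2 fold change between EY and N (vertical axis, on log2(TPM + 1)) of each tested gene in 5 lists, with points spread sideways for legibility, a bar at each median and filled points for an adjusted p under 0.01. The medians lie at -0.04 for the feedback genes, 0.05 for the cascade, 0.11 for other feedback regulators, 0.38 for immediate early genes and 0.12 for other ERK output genes, and all filled points are above 0.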

How the data were processed

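The authors deposited 1 table of TPM for the 6 EY and 4 N libraries, with 18586 rows named by symbol, of which 2 symbols were duplicated. Columns summed to 998358 to 998951 TPM. Per the submitters' processing notes, reads were handled with STAR (2.7.9), SAMtools (1.7), HTSeq (0.13.5), DESeq2 (1.34.0) and build GRCm39. The study's methods also name Kallisto with a human transcriptome for enrichment, and which route gave this table is not given in the sources used here. TPM keep no depth, so that read depth, counting intervals and detection floors are unknown and low genes are less certain.

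Values were tested as log2(TPM + 1) with limma (3.58.1, R 4.3.3; trended and robust variances, 2-sided), with genes of at least 1 TPM in at least 4 libraries and Benjamini-Hochberg adjustment over all 11630 genes. Calls required an adjusted p under 0.01 together with a log2 fold change beyond 1 in either direction, as in the study. On this scale the changes of low genes are understated. Line contrasts and the F test came from a model with 4 line means. The script was tested on simulated data with planted changes and no other differences between lines. False calls that come from differences between lines were therefore not examined. The named genes were all 10 members, genes called in the other lists, up to 4 per list with the highest mean TPM, the 2 genes most like each called member, and genes passing at the adjusted p. Genes passing below the fold threshold, or only without N replicate 4, were named after their values were seen. A gene that this rule names is not reported here. Members and lists were chosen with earlier results of these data known. Alternatives were the pseudocount, the filter, 3 scalings, omission of libraries or lines, blocks, and plain variances.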

Additional observations from a re-analysis of the deposited data

Results flagged for a closer look

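Over 20 groups of values (10 feedback genes in EY and in N), 1 library lay far from the others of its group in 3, by the gap to its neighbour relative to the whole range. Chance gives about 1 in 20 groups. Dusp6 in N replicate 4 was the lowest of its group at 22.7 TPM, with the gap making up 0.917 of the range. Spred1 in N replicate 4 was the lowest at 6.40 TPM, a gap of 0.855 of the range. Spry4 in EY replicate 2, the first library of EY4028, was the highest at 0.141 TPM, a level at which the table gives no depth.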

How the results depend on the processing

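Of the values for single members across all alternatives, 622 kept their direction and side of the adjusted p, 18 passed it newly, 12 no longer passed and 10 changed sign. For the other named genes these numbers were 326, 9, 49 and 7. The number of members called between EY and N, 1 with all libraries, was 0 under quantile normalization, median ratio scaling, rescaling without mitochondrial rows, without line EY4028, with the mean of each line and with the line as a random block, and 0 to 1 with single libraries left out. At the adjusted p alone it was 3 without line EY4174, 0 with line means or the random block, and 1 to 3 with single libraries left out. Of all genes, 413 were called with all libraries and 588 without line EY4174. This number was 216 with at least 1 TPM required in every library, 2 with line means and 203 with the random block. Line means leave 3 values against 1. With single libraries left out, the members passing were 1 to 5 in EY3960, 0 to 6 in EY4028, 0 to 2 in EY4174 and 0 to 1 between lines, the last also 1 under median ratio scaling. Leaving out a library of a line leaves 1 sample, assumed to vary like the others. Except without N replicate 4, shares of all genes at the adjusted p were not counted in these alternatives. Requiring 1 TPM in every library gave no value for Dusp4.

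Values that changed sign were small. Dusp4 in EY4174 was 0.045 under quantile normalization and -0.26 to 0.14 with single libraries left out. Spred1 then ranged from -0.17 to 0.028 in EY3960, -0.12 to 0.025 in EY4028 and -0.15 to 0.070 in EY4174. Dusp7 was -0.047 under quantile normalization, -0.014 under median ratio scaling, -0.0077 without mitochondrial rows, -0.016 without line EY4028 and -0.024 to 0.051 with single libraries left out. Ccnd1 was -0.015 without line EY4028. The cause of these changes was not tested. No scaling moved the median of all genes by over 0.1 on the log2 scale.

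Samples with the same number in their title did not deviate together, with correlations from -0.15 to 0.10, and share only a number. With that number as a replicate block, 0 members were called between EY and N and 221 of all genes. Phlda1 was at 0.82 (limma adjusted p 0.0131) and Dusp6 at -0.74 (adjusted p 0.00429). In EY4174 2 members passed, and 1 between lines, where the shares of all genes were not counted. N samples 3 and 4 have no EY partner and do not inform the contrast of EY with N.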
